A study of Mus musculus with 8 samples.

Results

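The genes described here are the 36 listed genes of cholesterol and fatty acid synthesis that sterol regulatory element-binding proteins (SREBPs) control or depend on, in mouse colon cancer organoids grown with or without epidermal growth factor (EGF). They were chosen by name as a pathway, 18 for the sterol arm, 6 regulators or sterol carriers and 12 for the fatty acid arm, and all 36 were among the 32728 genes of the count table and among the 16719 genes with enough counts to be tested. Poly(A)-selected RNA was sequenced in 8 libraries, 2 in each of 4 groups of organoid line and medium. Both lines, CTO19 and apsMC706, came from C57BL/6 mice and carried CRISPR knockouts of Apc, Trp53 and Smad4 (APS), so that every group shared these 3 knockouts. The groups were CTO19 organoids after 7 days without EGF (noEGF), CTO19 organoids after 3 days in the control medium (EM), apsMC706 organoids after 7 days without EGF, and apsMC706 organoids after 3 days in EM. The control medium held B27, noggin, the TGF-beta receptor inhibitor galunisertib and EGF, and the labels mention no change of medium other than the removal of EGF. EGF removal went with 7 days against 3 days of culture, and line went with labelled sex (CTO19 male, apsMC706 female), so within each pair these cannot be told apart. The labels call the 2 lines biological replicates and do not say whether the 2 libraries of a group came from separate cultures. P-values within a line rest on the spread between libraries of the same group, estimated over all 4 groups together, and that spread may be technical.

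SREBP-2 and SREBP-1 are transcription factors held in the endoplasmic reticulum by their escort SCAP and by the INSIG proteins when sterols are plentiful. When sterols fall, SCAP carries them to the Golgi, where they are cut and released to the nucleus. SREBP-2 mainly drives the enzymes that turn acetyl-CoA into cholesterol, and SREBP-1 mainly those that make and desaturate fatty acids. Growth factor signalling through PI3K, AKT and mTORC1 is known to raise SREBP activity, and dividing cells use both products for new membrane.

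Library totals lay between 35650262 and 38953838 counts. The transcripts of the targeted genes were still counted in all 8 libraries. Levels are given as CPM, counts scaled to a library total of 1e+06 after adjusting each total by its TMM factor. Apc was at 59.8 to 198 CPM, Trp53 at 13.0 to 33.3 CPM and Smad4 at 10.8 to 39.9 CPM. A gene count neither shows nor checks a small CRISPR deletion, and no unedited organoid was available for comparison. Epithelial markers (Epcam, Cdh1, Krt8, Krt18 and Krt19) were at 345 CPM or more in each library, while the intestinal markers Cdh17, Vil1, Lgals4 and Cdx2 were lower in all 4 CTO19 libraries than in any apsMC706 library, with Cdh17 at 1.24 to 7.21 CPM in CTO19 and 309.7 to 339 CPM in apsMC706. The colon marker Car1 was at most 3.72 CPM in apsMC706 and at most 0.0248 CPM in CTO19, and Cdx1 was at most 0.108 CPM in any library. Of 7 adipocyte markers, 6 stayed below 1 CPM in all libraries, and their summed level was 15.2 to 15.9 CPM in CTO19 noEGF, 4.72 to 5.56 CPM in CTO19 EM, 0.982 to 1.29 CPM in apsMC706 noEGF and 0.423 to 0.545 CPM in apsMC706 EM, most of it Fabp4. The summed hepatocyte list was 215 to 229 CPM in apsMC706 noEGF and 75.9 to 77.9 CPM in apsMC706 EM. It was at most 2.06 CPM in any CTO19 library. In apsMC706, albumin (Alb) was at 161 and 171 CPM in noEGF, against 5.71 and 5.34 CPM in EM. Hnf4a, most of the sum in apsMC706 EM, went the other way, at 52.0 and 55.5 CPM in noEGF, against 71.6 and 70.0 CPM in EM. The other listed genes were at most 1.80 CPM in any library. The fibroblast list summed to 14.0 to 14.8 CPM in CTO19 noEGF and 9.26 to 9.66 CPM in CTO19 EM. There Dcn averaged 9.90 CPM in noEGF and 0.100 CPM in EM, while Vim went the other way, at 3.31 and 7.61 CPM. In apsMC706 the list summed to 174 to 181 CPM, and Vim made up nearly all of it. The immune list summed to 6.16 to 8.18 CPM in CTO19 noEGF, mostly Csf1r, and to 0.897 CPM or less in the other libraries, with Ptprc at most 0.1405 CPM. The summed sebocyte list was higher in noEGF than in EM in both lines. It was 6.01 to 6.49 CPM in CTO19 noEGF and 3.29 to 3.91 CPM in CTO19 EM. In apsMC706 it was 6.604 to 7.61 CPM in noEGF and 3.92 to 4.38 CPM in EM. Within it Cidea had the largest change in both lines. Cidea averaged 2.30 CPM in CTO19 noEGF and 0.272 CPM in CTO19 EM. In apsMC706 it averaged 3.39 CPM in noEGF and 0.551 CPM in EM. Far2 also averaged higher in noEGF in both lines. Awat2 averaged 0.247 CPM in noEGF and 0.498 CPM in EM of CTO19, and was higher in noEGF in apsMC706. Fa2h averaged 0.121 CPM in noEGF and 0.308 CPM in EM of apsMC706, and was higher in noEGF in CTO19. Mc5r and Elovl3 averaged lower in noEGF in both lines and were at most 0.109 CPM in any library. Awat1 was at 0 counts in every library. The endothelial list summed to at most 3.53 CPM. The part of these cell types in the members' changes was not tested. In bulk RNA, fewer cells of a type and less RNA per cell cannot be told apart.

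Most of the pathway was lower without EGF, in both arms and in both lines, and the fall was deeper in apsMC706 for most members. The 36 genes together took 0.759% and 0.744% of all counts in CTO19 noEGF libraries, against 0.873% and 0.868% in CTO19 EM libraries. In apsMC706 they took 0.599% and 0.598% in noEGF, against 0.876% and 0.873% in EM. The 4 EM libraries therefore lay within 0.868% to 0.876% whatever the line, and the noEGF libraries of both lines lay below all of them. Sterol arm genes took 0.278% to 0.291% of counts in CTO19 noEGF and 0.3197% to 0.327% in CTO19 EM, and 0.2103% to 0.211% in apsMC706 noEGF against 0.321% to 0.326% in apsMC706 EM. Fatty acid arm genes took 0.376% to 0.377% in CTO19 noEGF and 0.452% to 0.465% in CTO19 EM, and 0.281% to 0.284% in apsMC706 noEGF against 0.435% to 0.436% in apsMC706 EM. In the fatty acid arm 1 gene, the desaturase Scd2, supplied 0.119% to 0.205% of all counts.

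**Figure D1:**
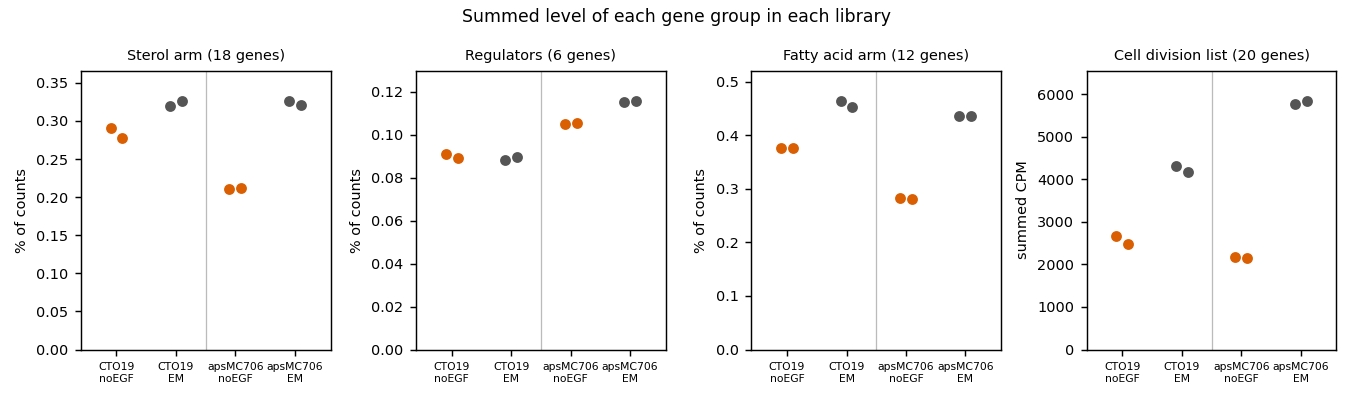
Share of all counts (percent, each axis from 0) taken by the sterol arm, the regulators and the fatty acid arm in each of the 8 libraries, noEGF left of EM within each line. For both arms every noEGF point lies below every EM point; for the regulators the noEGF points lie below the EM points in apsMC706 only.

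In edgeR's quasi-likelihood test with line as a covariate, 23 of the 36 members passed an adjusted p of 0.05 as lower without EGF and 1 (Acss2) as higher, where 48.8% of all tested genes passed, 23.3% as lower and 25.5% as higher. The median log2 fold change (noEGF over EM) was -0.35 for the members and 0.03 over all 16719 tested genes. By arm, 13 of 18 sterol genes were lower and 0 higher (median -0.35), 9 of 12 fatty acid genes were lower and 1 higher (median -0.52), and 1 of 6 regulators was lower (median -0.17). This comparison treats the 8 libraries as separate. With the counts of the 2 libraries in each group added together, which leaves the 2 lines as the replicates, edgeR called 0 members and 0 genes at an adjusted p under 0.05, with 2809 genes and 7 members at an unadjusted p under 0.05, while DESeq2 called 2 members after adjustment.

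Within apsMC706 all 36 members passed the test, 32 lower and 4 higher, where 67.2% of all tested genes passed, 33.1% lower and 34.1% higher, and 32.8% did not pass. Within CTO19, 21 were lower and 5 higher, where 68% of all tested genes passed, 33.3% lower and 34.7% higher. The median log2 fold change was -0.22 in CTO19 and -0.54 in apsMC706, against 0.02 and 0.00 over all tested genes. Read together, 20 members were lower in both lines, a pattern held by 18.5% of all tested genes, and 1 was higher in both, a pattern held by 17.1%. A further 8 (Hmgcs1, Mvk, Fdps, Fdft1, Sqle, Ebp, Srebf1 and Scap) were lower in apsMC706 and did not pass in CTO19 (8.71% of tested genes), and 4 (Tm7sf2, Hsd17b7, Srebf2 and Me1) were higher in CTO19 and lower in apsMC706 (5.88%). The remaining 3 were Insig2 and Acacb, higher in apsMC706 and not past the threshold in CTO19 (9.62%), and Insig1, lower in CTO19 and higher in apsMC706 (7.4%). A test of how far the lines' responses differ, CTO19 minus apsMC706, passed for 30 members, 24 positive and 6 negative, where 56% of tested genes passed, 30.4% as positive and 25.6% as negative. The 2 responses share no library.

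Cell division genes also fell without EGF, and more so in apsMC706. All 20 genes of a cell division list were lower over both lines, where 23.3% of all tested genes were lower. Their median log2 fold change was -0.75 in CTO19 and -1.51 in apsMC706. The difference of responses was positive for all 20, where 30.4% of all tested genes had a positive one. Their summed level was 2664 and 2478 CPM in CTO19 noEGF, against 4304 and 4164 CPM in CTO19 EM, and 2169 and 2150.3 CPM in apsMC706 noEGF, against 5759 and 5847 CPM in apsMC706 EM. Between the lines in EM the list did not go with the members. There 18 of the 20 were lower in CTO19 (median -0.44), where 33.8% of all tested genes were lower, while the members took 0.868% to 0.876% of counts in either line. The share of counts from mitochondrial genes also moved with the medium, at 4.13% to 5.19% in noEGF libraries and 2.94% to 3.68% in EM libraries. The part of either in the members' changes was not tested.

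**Figure D2:**
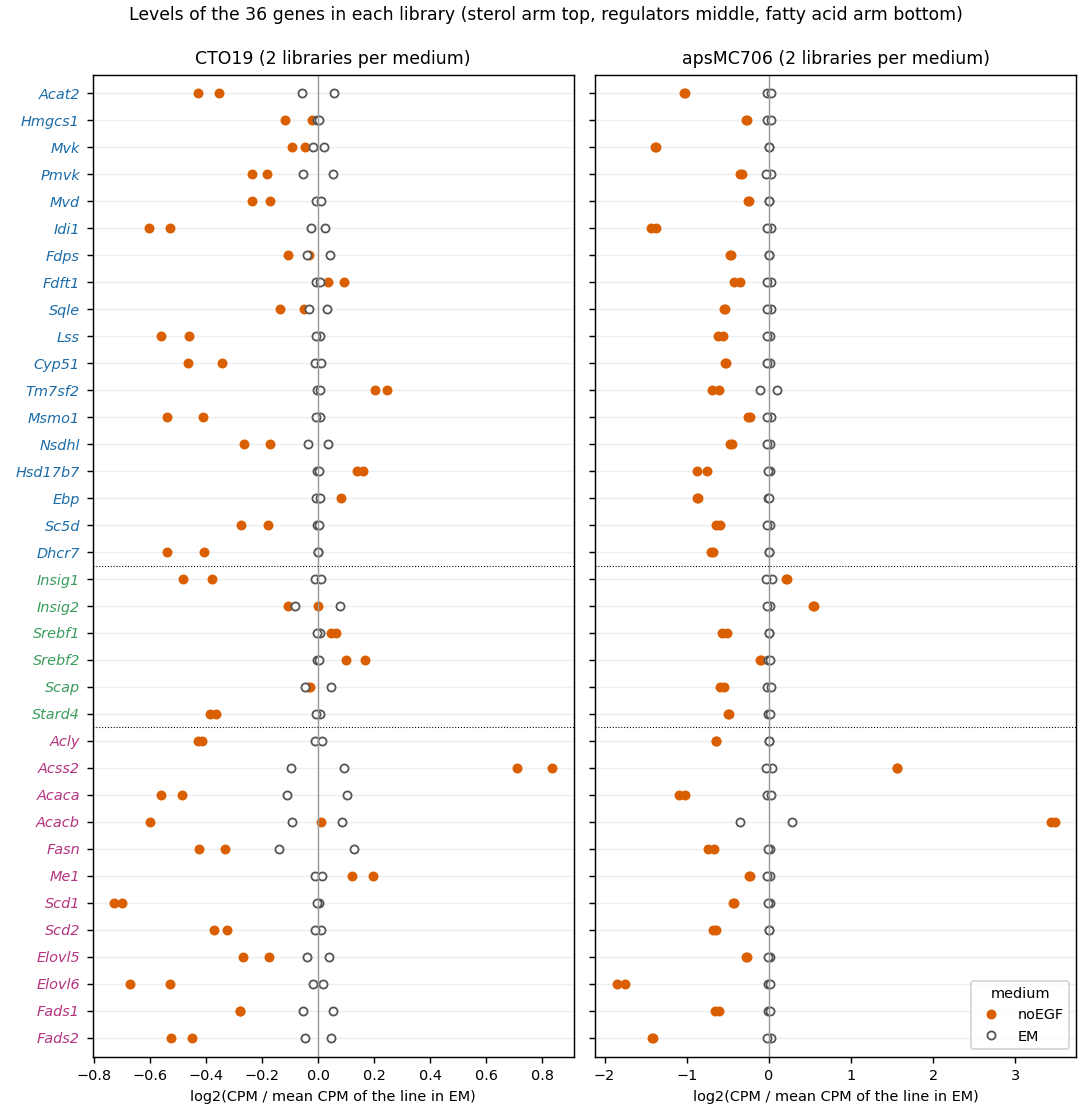
Log2 ratio of each library's CPM to the mean of its line's 2 EM libraries, for all 36 members in 3 arms, with CTO19 on the left and apsMC706 on the right; the horizontal scales of the panels differ. In apsMC706 the noEGF points of all 18 sterol genes lie left of 0, whereas in CTO19 several lie at or just right of it, and Acacb and Acss2 stand far to the right in apsMC706.

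The promoters of the members were searched for sequence motifs. No motif search chose the members, but they were listed as genes tied to SREBP, so their motif shares are not independent of that choice. RefSeq (GRCm38.p6) windows of 300 bases, 250 before to 50 after a gene's start, were matched by symbol for 29 of the 36 members. Fdps, Fdft1, Sqle, Stard4, Scd1, Scd2 and Fads1 had no window and were not searched. The CCAAT box, the site of the factor NF-Y that works beside SREBP at many sterol promoters, was looked for as CCAAT on both strands. It occurred in the windows of 24 of these 29 genes, against 41.1% of the 27025 genes with a window. By arm it was found for 14 of 15 sterol genes, 4 of 5 regulators and 6 of 9 fatty acid genes. An SRE-like sequence, searched as TCACNCCAC on both strands, was found for 1 member, Hmgcs1, against 1.44% of all genes with a window. Only this string was searched, so sites with other letters or outside the windows were missed, and a gene without a match may still hold one. The E-box CACGTG, which reads the same on both strands and which SREBP-1 can also bind, was found for 6 members (Hsd17b7, Sc5d, Dhcr7, Insig1, Scap and Elovl5), against 8.09% of all genes with a window. A match describes letters in the window and is neither a measured binding site nor a cause of a change, and the motifs were chosen after the expression values had been seen. Shown first is Hmgcs1, the member with the SRE-like match. After it stand Mvk, with 5 CCAAT boxes and a fall that passed in apsMC706 and not in CTO19, Msmo1, whose fall was larger in CTO19, and Fasn, the enzyme that builds palmitate. Last come Elovl6, the member with the largest fall over both lines and 0 matches, and Acss2, the one member higher in both lines. Capitals mark the CCAAT boxes, written ATTGG where they lie on the other strand, and in Hmgcs1 also the SRE-like TCACCCCAC. In Fasn, CCAATTGG holds a box on each strand that overlap.
Hmgcs1 (chr13:119690101-119690400, plus strand): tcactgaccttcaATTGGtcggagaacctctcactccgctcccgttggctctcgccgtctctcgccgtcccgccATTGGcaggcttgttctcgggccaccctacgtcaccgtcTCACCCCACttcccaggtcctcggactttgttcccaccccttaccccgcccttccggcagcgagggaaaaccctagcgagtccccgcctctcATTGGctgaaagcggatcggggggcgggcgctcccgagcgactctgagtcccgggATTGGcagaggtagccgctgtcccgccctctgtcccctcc
Mvk (chr5:114444019-114444318, plus strand): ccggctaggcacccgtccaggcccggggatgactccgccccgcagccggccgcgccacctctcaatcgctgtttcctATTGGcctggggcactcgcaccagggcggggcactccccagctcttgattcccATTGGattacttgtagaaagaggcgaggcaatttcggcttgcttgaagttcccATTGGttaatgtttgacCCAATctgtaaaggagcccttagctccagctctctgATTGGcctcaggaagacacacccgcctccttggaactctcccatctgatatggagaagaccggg
Msmo1 (chr8:64733529-64733828, minus strand): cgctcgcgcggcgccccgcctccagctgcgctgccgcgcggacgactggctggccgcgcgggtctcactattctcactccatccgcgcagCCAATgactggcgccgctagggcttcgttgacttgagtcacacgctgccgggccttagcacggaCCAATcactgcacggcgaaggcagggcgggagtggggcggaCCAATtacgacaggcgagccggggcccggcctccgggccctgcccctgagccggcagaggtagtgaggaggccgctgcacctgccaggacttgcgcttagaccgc
Fasn (chr11:120824498-120824797, minus strand): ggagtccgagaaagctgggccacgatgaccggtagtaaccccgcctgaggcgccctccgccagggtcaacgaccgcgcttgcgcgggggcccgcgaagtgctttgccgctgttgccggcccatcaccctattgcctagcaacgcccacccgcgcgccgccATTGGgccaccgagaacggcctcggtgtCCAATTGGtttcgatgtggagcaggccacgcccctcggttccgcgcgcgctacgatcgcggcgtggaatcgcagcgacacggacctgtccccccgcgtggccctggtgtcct
Elovl6 (chr3:129532136-129532435, plus strand): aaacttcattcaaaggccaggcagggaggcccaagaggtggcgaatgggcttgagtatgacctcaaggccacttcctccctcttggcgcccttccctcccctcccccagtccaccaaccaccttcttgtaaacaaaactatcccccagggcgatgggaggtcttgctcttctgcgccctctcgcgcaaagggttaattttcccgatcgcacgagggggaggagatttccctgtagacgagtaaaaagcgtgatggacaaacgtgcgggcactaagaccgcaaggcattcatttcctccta
Acss2 (chr2:155517793-155518092, plus strand): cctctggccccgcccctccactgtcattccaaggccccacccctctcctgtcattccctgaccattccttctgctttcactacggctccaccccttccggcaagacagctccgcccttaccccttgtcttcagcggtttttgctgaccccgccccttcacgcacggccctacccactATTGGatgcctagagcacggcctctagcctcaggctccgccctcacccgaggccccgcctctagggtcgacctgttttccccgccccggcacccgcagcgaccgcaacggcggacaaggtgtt

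The first steps of the sterol arm build mevalonate and the isoprene unit, and among them Mvk and Idi1 had the deepest falls without EGF in apsMC706. Acat2, the cytosolic thiolase that joins acetyl-CoA units, counted 169.7 and 161 CPM in noEGF, against 209 and 225 CPM in EM of CTO19. In apsMC706 it counted 99.8 and 101 CPM in noEGF, against 202 and 208 CPM in EM. The noEGF libraries were below the EM libraries in both lines, with log2 fold changes of -0.39 ± 0.04 (adjusted p = 2.04e-06) in CTO19 and -1.03 ± 0.05 (adjusted p = 5.6e-11) in apsMC706. Its neighbouring copy Acat3, which is close to it in sequence so that reads may be split between them, was also lower, at -0.41 in CTO19 and -1.11 in apsMC706. Hmgcs1, the synthase of HMG-CoA, whose promoter carries the SRE-like match, counted 478 and 447 CPM in noEGF, against 484 and 487 CPM in EM of CTO19, and 259 and 257 CPM in noEGF, against 307 and 317 CPM in EM of apsMC706. It was lower in apsMC706 (-0.28 ± 0.04, adjusted p = 2.02e-05), and its value in CTO19 did not pass (-0.07 ± 0.04, adjusted p = 0.137). The difference of these responses, 0.21 ± 0.06 (adjusted p = 0.00554), was 0.07 (adjusted p = 0.289) without CTO19 noEGF replicate 1.

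Mvk, the kinase that phosphorylates mevalonate, had the widest gap between the lines in the sterol arm. It lies at chromosome 5, 114444269 to 114460591 (GRCm38), and counted 44.4 and 45.9 CPM in noEGF, against 46.7 and 48.0 CPM in EM of CTO19. In apsMC706 it counted 17.6 and 17.4 CPM in noEGF, against 45.4 and 45.6 CPM in EM, a 2.60-fold lower level, with both noEGF libraries far below both EM libraries. The log2 fold change was -0.07 ± 0.05 (adjusted p = 0.203) in CTO19 and -1.38 ± 0.05 (adjusted p = 9.84e-12) in apsMC706, and the difference of 1.31 ± 0.07 passed (adjusted p = 1.42e-09). Over both lines Mvk only just passed (-0.72 ± 0.25, adjusted p = 0.0493), and its adjusted p was 0.0522 to 0.146 without any 1 of the 4 apsMC706 libraries or CTO19 noEGF replicate 1. Pmvk and Mvd, the next kinase and the decarboxylase, moved less. Pmvk counted 27.8 and 26.8 CPM in noEGF against 30.4 and 32.7 CPM in EM of CTO19, and 32.9 and 33.4 against 43.0 and 41.2 CPM in apsMC706. Mvd counted 44.7 and 42.7 CPM in noEGF against 50.0 and 50.6 CPM in EM of CTO19, and 69.8 and 70.2 against 83.0 and 83.5 CPM in apsMC706. Both fell over both lines, Pmvk by 0.28 (adjusted p = 0.00754) and Mvd by 0.23 (adjusted p = 0.00584) on the log2 scale, and neither difference of responses passed (95% intervals -0.03 to 0.30 for Pmvk and -0.09 to 0.18 for Mvd).

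Idi1, the isomerase that sets the balance of the isoprene units, was the most strongly lowered sterol gene over both lines. It lies at chromosome 13, 8885501 to 8892451, and counted 373 and 354 CPM in noEGF, against 529 and 548 CPM in EM of CTO19, and 223 and 213 CPM in noEGF, against 586 and 566 CPM in EM of apsMC706. Every noEGF library was below every EM library, with log2 fold changes of -0.57 ± 0.04 (adjusted p = 1.83e-08) in CTO19, -1.40 ± 0.04 (adjusted p = 1.25e-12) in apsMC706 and -0.98 ± 0.17 (adjusted p = 0.00289) over both lines. Fdps, which makes farnesyl diphosphate, counted 41.9 and 39.8 CPM in noEGF against 41.7 and 44.1 CPM in EM of CTO19, where the media overlapped, and 27.6 and 27.3 against 38.1 and 37.9 CPM in apsMC706, where they did not. Its fall over both lines, -0.27 ± 0.09 (adjusted p = 0.0415), had an adjusted p of 0.0631 to 0.118 without any 1 of the 4 apsMC706 libraries, CTO19 EM replicate 2 or CTO19 noEGF replicate 2. The predicted gene Gm43738 shares 1124 exon bases with Fdps on the same strand, 26.7% of the bases annotated as Fdps exon. Gm43738 was not among the counted genes, so any reads of it there could be counted as Fdps, and the Fdps counts are uncertain. Idi1 shares 323 exon bases with Gm48574 and Hmgcs1 shares 557 with Gm48342, both on the opposite strand and neither among the counted genes. Lss, Cyp51, Srebf1, Me1, Scd2 and Elovl6 share between 30 and 381 bases with other genes.

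The enzymes that commit farnesyl units to sterol, Fdft1 and Sqle, were lower in apsMC706 and did not pass in CTO19. Fdft1, squalene synthase, counted 174 and 168 CPM in noEGF, against 163 and 165 CPM in EM of CTO19, and 129 and 134 CPM in noEGF, against 175 and 169 CPM in EM of apsMC706. Its log2 fold change was 0.06 ± 0.04 (adjusted p = 0.181) in CTO19 and -0.39 ± 0.04 (adjusted p = 7.4e-07) in apsMC706. Its exons share 774 bases with Ctsb on the opposite strand, and the library kit named in the labels does not mark strand, so reads of the shared bases cannot be assigned. Ctsb itself was higher without EGF in both lines (0.35 in CTO19 and 0.83 in apsMC706, log2). Sqle, squalene epoxidase, the oxygen-requiring control step of the branch, counted 259 and 245 CPM in noEGF, against 263 and 275 CPM in EM of CTO19, and 209 and 209 CPM in noEGF, against 308 and 299.8 CPM in EM of apsMC706. Its log2 fold change was -0.09 ± 0.04 (adjusted p = 0.0533) in CTO19 and -0.54 ± 0.04 (adjusted p = 1.71e-08) in apsMC706. Over both lines Sqle passed (-0.32 ± 0.10, adjusted p = 0.0321), but its adjusted p was 0.061 to 0.0966 without any 1 of the 4 apsMC706 libraries or CTO19 noEGF replicate 2. Lss, which closes squalene epoxide into lanosterol, fell in both lines. It counted 115 and 108 CPM in noEGF, against 159 and 158 CPM in EM of CTO19, and 116 and 112 CPM in noEGF, against 174 and 169 CPM in EM of apsMC706, with a log2 fold change of -0.55 ± 0.05 (adjusted p = 0.000264) over both lines and a difference of responses whose 95% interval was -0.05 to 0.21.

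After lanosterol the genes split into those that fell in both lines and those that fell in apsMC706 alone. Cyp51, the lanosterol demethylase, counted 342 and 314 CPM in noEGF, against 430.3 and 437 CPM in EM of CTO19, and 375 and 371 CPM in noEGF, against 544 and 530.2 CPM in EM of apsMC706, and was lower over both lines (-0.46 ± 0.06, adjusted p = 0.00107). Dhcr7, which makes cholesterol from its last precursor in one branch, counted 94.3 and 86.1 CPM in noEGF, against 125 and 125 CPM in EM of CTO19, and 70.6 and 69.4 CPM in noEGF, against 113 and 113 CPM in EM of apsMC706, and was also lower (-0.58 ± 0.06, adjusted p = 0.000437). Nsdhl, a dehydrogenase of sterol demethylation, counted 74.0 and 69.4 CPM in noEGF against 81.3 and 85.5 CPM in EM of CTO19, and 68.8 and 67.6 against 95.5 and 93.0 CPM in apsMC706 (-0.34 ± 0.07, adjusted p = 0.00487 over both lines). These 3 genes had separate noEGF and EM libraries in each line. The difference of responses passed for Dhcr7 (0.22 ± 0.06, adjusted p = 0.0104) and Nsdhl (0.25 ± 0.07, adjusted p = 0.00499), but was 0.06 (adjusted p = 0.414) for Dhcr7 and 0.11 (adjusted p = 0.173) for Nsdhl without CTO19 noEGF replicate 1. Sc5d, a sterol desaturase, counted 174 and 163 CPM in noEGF, against 197 and 198 CPM in EM of CTO19, and 92.6 and 95.9 CPM in noEGF, against 146 and 142 CPM in EM of apsMC706, and was lower in both lines with a smaller fall in CTO19 (difference 0.39 ± 0.06, adjusted p = 6.7e-05). Msmo1, a methyl sterol oxidase whose promoter was printed with 3 CCAAT boxes, was the one sterol gene with a larger fall in CTO19. It counted 219 and 200.0 CPM in noEGF, against 292 and 289 CPM in EM of CTO19, and 252 and 249 CPM in noEGF, against 302 and 292 CPM in EM of apsMC706, with log2 fold changes of -0.48 ± 0.04 in CTO19 and -0.24 ± 0.04 in apsMC706, and a difference of -0.23 ± 0.06 (adjusted p = 0.00488).

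Hsd17b7, Ebp and Tm7sf2, which reduce or isomerise the sterol ring, did not pass as lower in CTO19. Hsd17b7, a ketosteroid reductase, counted 147 and 149 CPM in noEGF, against 133 and 134 CPM in EM of CTO19, so that both noEGF libraries were above both EM libraries. In apsMC706 it counted 28.6 and 31.1 CPM in noEGF, against 53.0 and 51.9 CPM in EM, the opposite order. It was higher in CTO19 (0.15 ± 0.04, adjusted p = 0.00642) and lower in apsMC706 (-0.81 ± 0.05, adjusted p = 1.41e-09), and the difference was 0.96 ± 0.07 (adjusted p = 1.48e-08). Tm7sf2, a sterol reductase, was also higher in CTO19 (0.23 ± 0.07, adjusted p = 0.0149) and lower in apsMC706 (-0.65 ± 0.08, adjusted p = 2.78e-06), at 20.3 and 20.9 CPM in noEGF against 17.6 and 17.7 CPM in EM of CTO19, and 13.1 and 12.2 against 21.2 and 18.5 CPM in apsMC706. Tm7sf2 shares 532 exon bases on the same strand with its neighbour Vps51, which was higher without EGF in both lines (0.51 in CTO19 and 0.20 in apsMC706), so its counts are uncertain. Ebp, a sterol isomerase, counted 51.0 and 48.4 CPM in noEGF, against 48.0 and 48.5 CPM in EM of CTO19, where the media overlapped, and 19.8 and 19.9 CPM in noEGF, against 36.1 and 36.3 CPM in EM of apsMC706. Its fall in apsMC706 passed (-0.87 ± 0.05, adjusted p = 1.6e-09), its value in CTO19 did not (0.04 ± 0.05, adjusted p = 0.441), and the difference was 0.91 ± 0.07 (adjusted p = 6.34e-08).

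**Figure D3:**
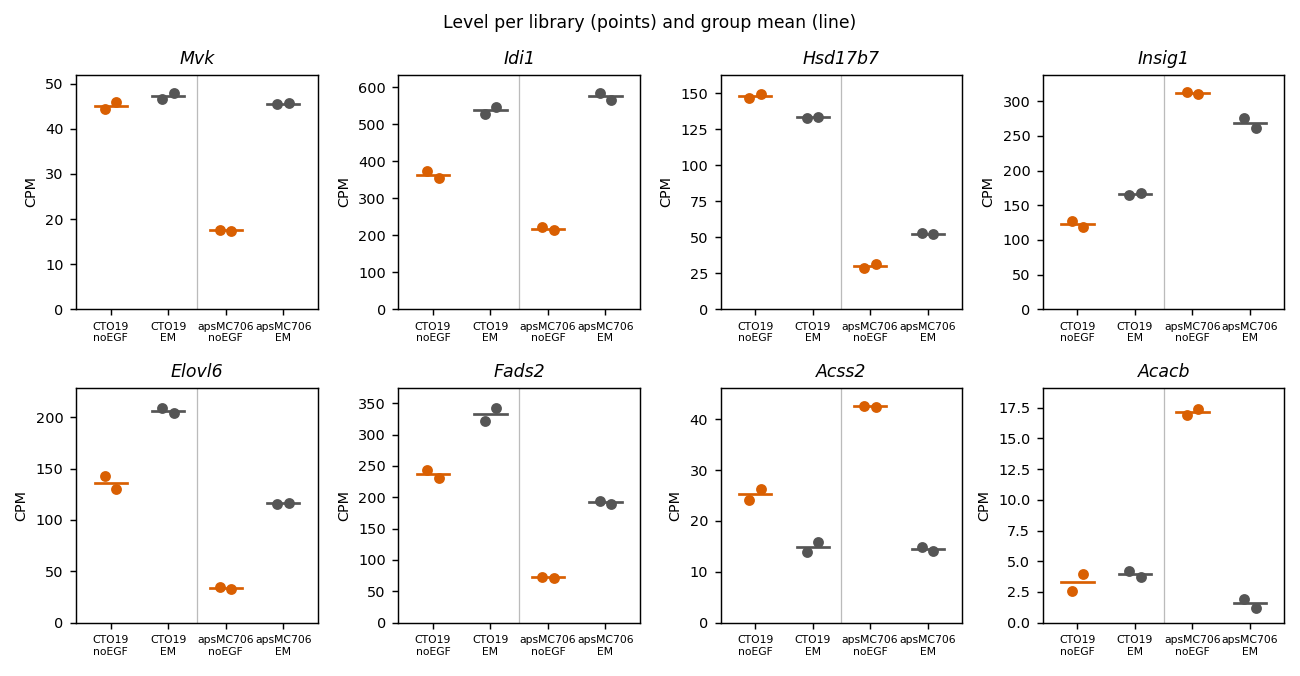
CPM of 8 members in every library (vertical axes from 0, each with its own range), noEGF left of EM within each line, with the group mean as a line. Mvk and Acacb show the gap between the lines: in apsMC706 their noEGF points lie far from the EM points, and in CTO19 they lie close to them.

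The regulators moved in different directions. Of the 6, 1 (16.7%) was lower over both lines, the sterol carrier Stard4, where 23.3% of all tested genes were lower. Within apsMC706 all 6 passed, 4 lower and 2 higher, where 33.1% of all tested genes were lower and 34.1% higher. Within CTO19, 2 were lower and 1 higher, where 33.3% were lower and 34.7% higher. Without CTO19 EM replicate 1 the value of Scap over both lines was -0.38, against -0.30 with all libraries. Stard4, which moves cholesterol between membranes, counted 115 and 113 CPM in noEGF, against 149 and 147 CPM in EM of CTO19, and 172 and 169.7 CPM in noEGF, against 239 and 242 CPM in EM of apsMC706, and fell in each line (-0.38 ± 0.04, adjusted p = 4.68e-07 in CTO19 and -0.49 ± 0.04, adjusted p = 1.4e-08 in apsMC706). Srebf2, the gene of SREBP-2, stayed within a narrow range, at 395 and 377 CPM in noEGF, against 351 and 353 CPM in EM of CTO19, and 386 and 383 CPM in noEGF, against 409 and 418 CPM in EM of apsMC706. Its opposite responses were small, 0.13 ± 0.04 (adjusted p = 0.0054) in CTO19 and -0.10 ± 0.04 (adjusted p = 0.0217) in apsMC706, and their difference of 0.24 ± 0.05 (adjusted p = 0.0013) was 0.12 (adjusted p = 0.0812) without CTO19 noEGF replicate 1. Srebf1, the gene of SREBP-1a and SREBP-1c, counted 138 and 137 CPM in noEGF, against 133 and 132 CPM in EM of CTO19, and 111 and 105 CPM in noEGF, against 157 and 157 CPM in EM of apsMC706. It was lower in apsMC706 (-0.54 ± 0.04, adjusted p = 1.26e-08) and did not pass in CTO19 (0.05 ± 0.04, adjusted p = 0.238), with a difference of 0.59 ± 0.06 (adjusted p = 4.14e-07). Scap, the escort of both, counted 79.3 and 79.6 CPM in noEGF, against 78.6 and 83.9 CPM in EM of CTO19, where the media overlapped, and 39.5 and 40.8 CPM in noEGF, against 58.8 and 60.7 CPM in EM of apsMC706, with a fall in apsMC706 (-0.57 ± 0.05, adjusted p = 6.04e-08) and a difference of 0.54 ± 0.07 (adjusted p = 6.41e-06). Scap shares 985 exon bases with a gene on the opposite strand that was not among the counted genes, so the Scap counts may include its reads and are uncertain.

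The INSIG genes, whose proteins retain the SREBP complex, went the other way from most members in apsMC706. Insig1, itself a strongly sterol-responsive SREBP target, lies at chromosome 5, 28071363 to 28078662. It counted 128 and 119 CPM in noEGF, against 165 and 168 CPM in EM of CTO19, and 313 and 311 CPM in noEGF, against 275 and 262 CPM in EM of apsMC706. The noEGF libraries were below EM in CTO19 (-0.43 ± 0.04, adjusted p = 5.48e-07) and above EM in apsMC706 (0.21 ± 0.04, adjusted p = 0.000349), and the difference was -0.64 ± 0.06 (adjusted p = 4.04e-07). Insig2 counted 33.9 and 36.5 CPM in noEGF, against 34.5 and 38.5 CPM in EM of CTO19, where the media overlapped, and 30.7 and 30.3 CPM in noEGF, against 21.2 and 20.6 CPM in EM of apsMC706. It was higher without EGF in apsMC706 (0.54 ± 0.07, adjusted p = 2.97e-06), did not pass in CTO19 (-0.05 ± 0.06, adjusted p = 0.455), and had a difference of -0.60 ± 0.09 (adjusted p = 4.5e-05). Neither passed over both lines, with adjusted p of 0.531 for Insig1 and 0.151 for Insig2.

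In the fatty acid arm the enzymes that make malonyl-CoA and palmitate fell in both lines. Acly, which releases cytosolic acetyl-CoA from citrate, counted 353 and 356 CPM in noEGF, against 471 and 478 CPM in EM of CTO19, and 285 and 286 CPM in noEGF, against 445 and 446 CPM in EM of apsMC706, and was lower over both lines (-0.53 ± 0.07, adjusted p = 0.00079). Acaca, the cytosolic acetyl-CoA carboxylase, counted 120.2 and 114 CPM in noEGF, against 181 and 156 CPM in EM of CTO19, and 73.9 and 70.3 CPM in noEGF, against 148 and 152 CPM in EM of apsMC706, with log2 fold changes of -0.52 ± 0.06 (adjusted p = 1.54e-05) in CTO19 and -1.06 ± 0.06 (adjusted p = 3.22e-08) in apsMC706. Fasn, fatty acid synthase, counted 560.5 and 526 CPM in noEGF, against 771 and 642 CPM in EM of CTO19, and 449 and 426 CPM in noEGF, against 721 and 708 CPM in EM of apsMC706. These 3 genes had every noEGF library below every EM library. In CTO19 the 2 EM libraries of Fasn and of Acaca lay further apart than for most members, and replicate 1 was the higher for both. Fasn fell over both lines (-0.54 ± 0.10, adjusted p = 0.00385). Its difference of responses passed narrowly (0.33 ± 0.11, adjusted p = 0.0399) and had an adjusted p of 0.0634 to 0.335 without either apsMC706 EM library, apsMC706 noEGF replicate 2 or either CTO19 noEGF library. The difference for Acly, 0.22 ± 0.05 (adjusted p = 0.00137), was 0.13 (adjusted p = 0.0518) without CTO19 noEGF replicate 2, and that for Acaca was 0.53 ± 0.09 (adjusted p = 0.000316).

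Elovl6, the elongase that takes palmitate to stearate, had the largest fall of the 36 members in apsMC706. It lies at chromosome 3, 129532355 to 129638495. It counted 143 and 129.8 CPM in noEGF, against 209 and 204 CPM in EM of CTO19, and 34.4 and 32.4 CPM in noEGF, against 115 and 117 CPM in EM of apsMC706, a 3.48-fold lower level in apsMC706 against 1.51-fold lower in CTO19. Its log2 fold change was -0.60 ± 0.05 (adjusted p = 4.53e-08) in CTO19, -1.80 ± 0.05 (adjusted p = 9.98e-13) in apsMC706 and -1.19 ± 0.24 (adjusted p = 0.00524) over both lines, with a difference of 1.20 ± 0.07 (adjusted p = 3.95e-09). Elovl5, which elongates polyunsaturated fatty acids, moved much less, at 115 and 108 CPM in noEGF against 126 and 133 CPM in EM of CTO19, and 151 and 151 against 184 and 182 CPM in apsMC706. It was lower over both lines (-0.25 ± 0.05, adjusted p = 0.00605), and its difference of responses did not pass (95% interval -0.08 to 0.18).

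The desaturases fell in both lines. Scd2 and Scd1, stearoyl-CoA desaturases that make oleate, lie close together on chromosome 19, Scd2 at 44293674 to 44306864 and Scd1 at 44394455 to 44407879. Scd2, the most abundant member, counted 1623 and 1673 CPM in noEGF, against 2113 and 2084 CPM in EM of CTO19, and 1204 and 1179.9 CPM in noEGF, against 1879 and 1891 CPM in EM of apsMC706. Scd1 counted 165 and 161 CPM in noEGF, against 268 and 266 CPM in EM of CTO19, and 239 and 236 CPM in noEGF, against 323 and 319 CPM in EM of apsMC706. The fall of Scd2 was smaller in CTO19 (-0.35 ± 0.04, adjusted p = 6.48e-07) than in apsMC706 (-0.66 ± 0.04, adjusted p = 4.51e-10; difference 0.31 ± 0.05, adjusted p = 8.96e-05), while the fall of Scd1 was larger in CTO19 (-0.71 ± 0.04, adjusted p = 3.68e-10) than in apsMC706 (-0.43 ± 0.04, adjusted p = 4.41e-08; difference -0.28 ± 0.05, adjusted p = 0.000223). The copies are similar in sequence, and how reads shared between them were counted is not given in the sources used here. Fads2 and Fads1, the front-end desaturases of polyunsaturated fatty acids, also lie close together on chromosome 19, Fads2 at 10062765 to 10101746 and Fads1 at 10182888 to 10196877. Fads2 counted 243 and 231 CPM in noEGF, against 322 and 343 CPM in EM of CTO19, and 72.3 and 71.6 CPM in noEGF, against 195 and 189 CPM in EM of apsMC706, with log2 fold changes of -0.49 ± 0.04 (adjusted p = 1.12e-07) in CTO19 and -1.41 ± 0.04 (adjusted p = 2.09e-12) in apsMC706 and a difference of 0.92 ± 0.06 (adjusted p = 1.28e-08). Fads1 counted 97.4 and 97.6 CPM in noEGF, against 114 and 123 CPM in EM of CTO19, and 79.4 and 76.8 CPM in noEGF, against 120.5 and 122 CPM in EM of apsMC706, with -0.28 ± 0.04 (adjusted p = 4.99e-05) in CTO19 and -0.64 ± 0.04 (adjusted p = 7.13e-09) in apsMC706 and a difference of 0.36 ± 0.06 (adjusted p = 0.000181).

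Acss2, Acacb and Me1 departed from the rest of the fatty acid arm. Acss2, the synthetase that makes acetyl-CoA from acetate in cytosol and nucleus, lies at chromosome 2, 155517948 to 155585724 and was the one member higher without EGF in both lines. It counted 24.2 and 26.4 CPM in noEGF, against 13.8 and 15.8 CPM in EM of CTO19, a 1.71-fold higher level, and 42.5 and 42.5 CPM in noEGF, against 14.8 and 14.2 CPM in EM of apsMC706, 2.93-fold higher. The log2 fold change was 0.77 ± 0.07 (adjusted p = 2.46e-07) in CTO19, 1.55 ± 0.07 (adjusted p = 5.67e-11) in apsMC706 and 1.16 ± 0.16 (adjusted p = 0.00121) over both lines, and the rise was smaller in CTO19 (difference -0.78 ± 0.10, adjusted p = 1.06e-05). Its exons share 395 bases with Gss, 197 with Ggt7 and 335 with Acss2os, all on the opposite strand. Gss was lower without EGF (-0.34 in CTO19 and -0.17 in apsMC706), and Ggt7 was at most 2.24 CPM and Acss2os at most 0.0538 CPM in any library.

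Acacb, the carboxylase at the mitochondrial surface whose malonyl-CoA restrains fatty acid oxidation, was the least abundant member per length. It lies at chromosome 5, 114146535 to 114250761, and counted 2.61 and 3.98 CPM in noEGF, against 4.20 and 3.71 CPM in EM of CTO19, where the media overlapped. In apsMC706 it counted 16.9 and 17.4 CPM in noEGF, against 1.90 and 1.23 CPM in EM, so both noEGF libraries were far above both EM libraries. It was 10.9-fold higher in apsMC706 (3.45 ± 0.19, adjusted p = 1.72e-08) and did not pass in CTO19 (-0.25 ± 0.20, adjusted p = 0.278), and its difference of -3.70 ± 0.28 (adjusted p = 6.28e-07) was the largest of the members in size. Over both lines it did not pass (1.58 ± 0.79, adjusted p = 0.139), since that model reads the gap between lines as spread. Me1, the malic enzyme that supplies cytosolic NADPH, counted 235 and 223 CPM in noEGF, against 203 and 207 CPM in EM of CTO19, and 190.1 and 192 CPM in noEGF, against 228 and 222 CPM in EM of apsMC706. It was higher without EGF in CTO19 (0.16 ± 0.04, adjusted p = 0.00236) and lower in apsMC706 (-0.24 ± 0.04, adjusted p = 7.58e-05), with a difference of 0.39 ± 0.06 (adjusted p = 2.4e-05).

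**Figure D4:**
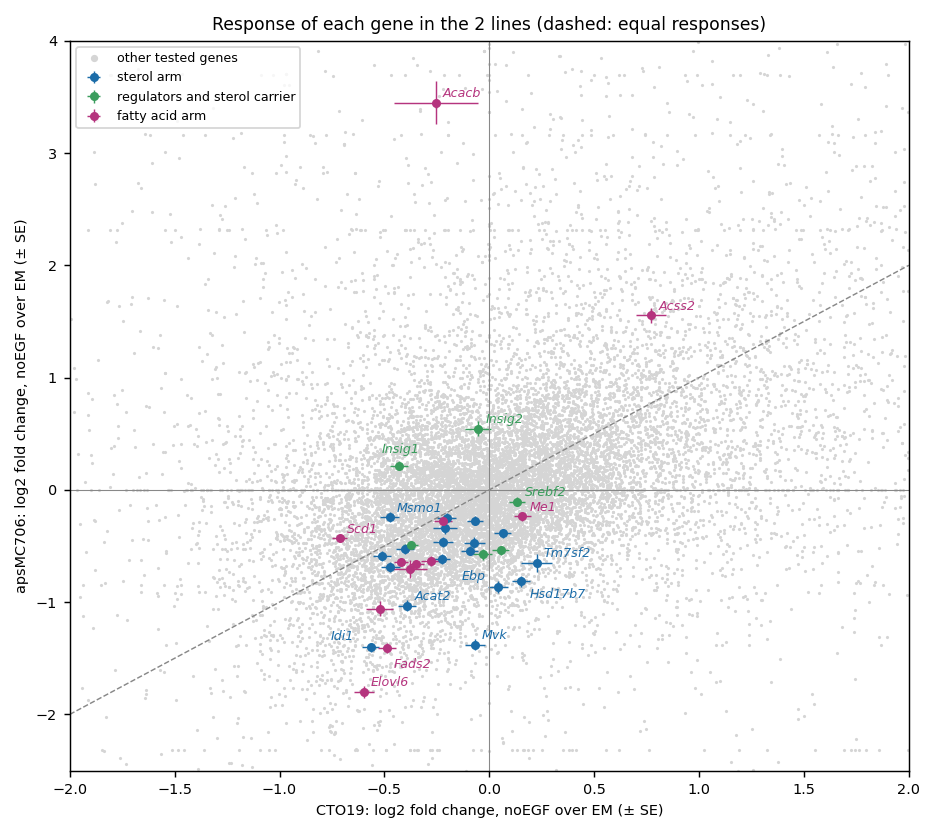
Log2 fold change (noEGF over EM) in CTO19 (horizontal) against that in apsMC706 (vertical) for the 36 members with standard errors, over the other tested genes in grey; the axes have different lengths, 1482 tested genes lie outside them, and the dashed line marks equal responses. Most sterol and fatty acid genes lie below the dashed line and left of 0, with Acacb and Acss2 far above.

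Of the 20 members lower in both lines, the difference of responses passed as a smaller fall in CTO19 for 12 and as a larger fall in CTO19 for 2 (Msmo1 and Scd1), and it did not pass for the other 6 (Pmvk, Mvd, Lss, Cyp51, Stard4 and Elovl5). The same split was not counted among all tested genes lower in both lines, so this split cannot be called particular to the members. All 20 cell division genes also had a positive difference. By arm, 13 of 18 sterol genes had a positive difference and 1 a negative one, and 8 of 12 fatty acid genes had a positive and 3 a negative one, where 30.4% of all tested genes had a positive and 25.6% a negative one. Among regulators, 3 of 6 were positive and 2 negative. The median difference was 0.32 for the members and 0.06 over all tested genes. For Stard4 the difference, 0.12 ± 0.05 (adjusted p = 0.0672), passed without CTO19 EM replicate 1 (0.13, adjusted p = 0.0351).

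Set side by side in the same medium, the lines differed in 33 members without EGF and in 28 with it, where more of all tested genes also passed without EGF. In EM, 14 members were higher in CTO19 and 14 lower than in apsMC706, where 71.3% of tested genes passed, 37.5% higher and 33.8% lower, and the median log2 difference (CTO19 over apsMC706) was -0.02, against 0.02 over all tested genes. Without EGF, 23 were higher and 10 lower in CTO19, where 80% of tested genes passed, 45.7% higher and 34.3% lower, and the median was 0.32, against 0.13 over all. In EM, 6 sterol genes were higher and 7 lower, and without EGF 12 were higher and 4 lower. In the fatty acid arm, 6 were higher and 3 lower in EM, and 8 higher and 4 lower without EGF. Members that stood apart in both media included Hsd17b7, at 2.31 in noEGF and 1.35 in EM (adjusted p = 3.59e-15 and 9.88e-13), and Elovl6, at 2.03 and 0.83 (adjusted p = 4.46e-14 and 6.44e-10). Fads2 was also higher in CTO19 in both media, at 1.72 in noEGF and 0.80 in EM. Mvk differed by 1.37 ± 0.05 (adjusted p = 3.09e-12) in noEGF and did not pass in EM (0.06 ± 0.05, adjusted p = 0.292). Insig1, Stard4, Mvd and Elovl5 were lower in CTO19 in both media, with Insig1 at -1.34 in noEGF and -0.69 in EM. Acacb was lower in CTO19 without EGF (-2.37 ± 0.17, adjusted p = 8.63e-08) and higher in EM (1.33 ± 0.23, adjusted p = 0.000292).

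**Figure D5:**
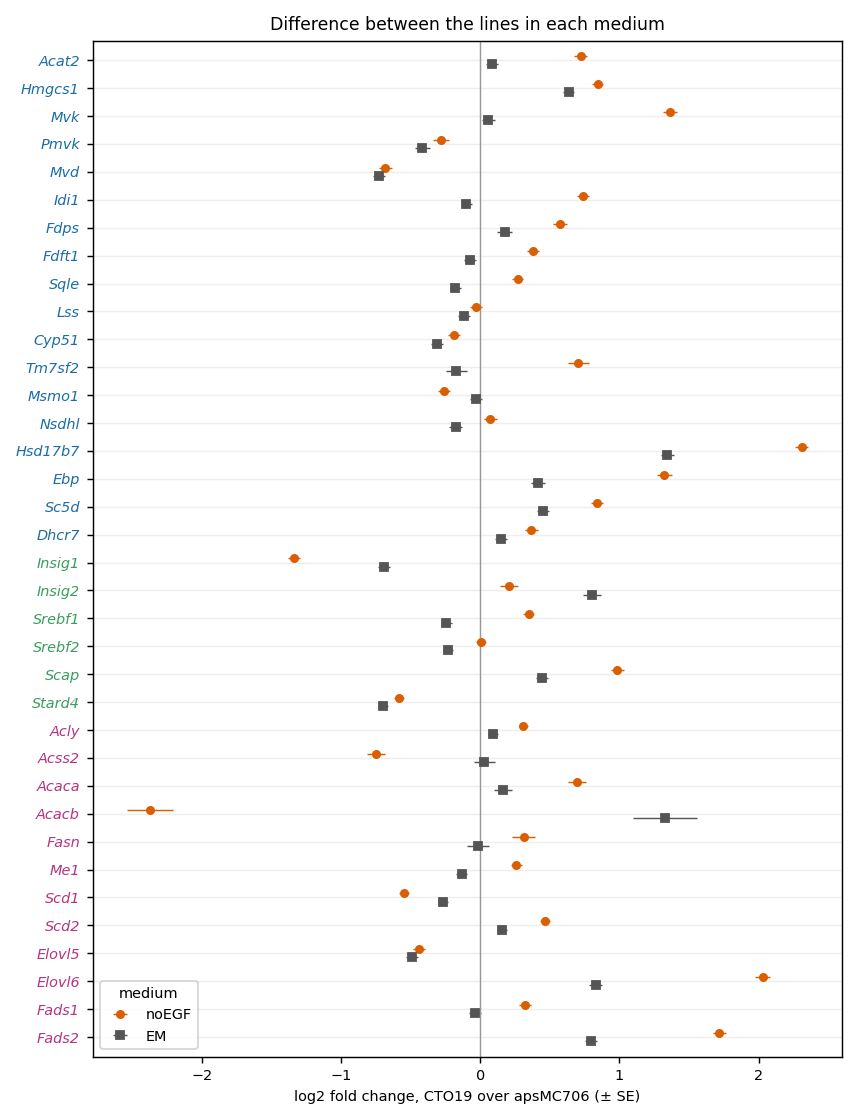
Log2 difference between the lines (CTO19 over apsMC706, ± SE) for the 36 members in noEGF and in EM. Without EGF more points lie right of 0 than in EM, and Hsd17b7, Elovl6 and Fads2 lie right of it in both media, while Insig1, Stard4 and Mvd lie left of it in both.

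Levels between genes are compared here as CPM per kilobase of annotated exon, averaged over the 4 groups. Scd2 stood first at 312, followed by Idi1 at 121, Cyp51 at 94.7, Hmgcs1 at 82.6, Acly at 73.9 and Insig1 at 70.3. The lowest were Acaca at 7.43, Tm7sf2 at 4.02, Acss2 at 2.39 and Acacb at 0.674. Scd2 had group means of 302, 384, 218 and 345 CPM per kilobase in CTO19 noEGF, CTO19 EM, apsMC706 noEGF and apsMC706 EM, in that order. Idi1 had 104, 154, 62.2 and 164 and Hmgcs1 101, 106, 56.1 and 68.0 CPM per kilobase in the same order of groups. Annotated exon length takes in every transcript, not those in use.

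Further lists of genes of these pathways are given beside the shares of all tested genes, 25.5% higher and 23.3% lower over both lines. Of 10 tested genes for SREBP cleavage and INSIG turnover, 2 were higher and 3 lower (20% and 30%, median log2 fold change 0.01). These shares lie near those of all tested genes, so the list as a whole did not stand apart. Erlin1, a cholesterol-binding protein of the endoplasmic reticulum, was lower at -0.34 ± 0.05 (adjusted p = 0.00156), while its partner Erlin2 was higher at 0.24 ± 0.08 (adjusted p = 0.0357). Ubxn8 (-0.57) and Ufd1 (-0.36), which serve the extraction of proteins from the endoplasmic reticulum, were lower, and Fbxw7 (0.23), a ubiquitin ligase subunit that acts on nuclear SREBP, was higher. Of 15 genes of the isoprenoid branch, 1 was higher and 4 lower (6.67% and 26.7%, median 0.06), so the share lower was near that of all tested genes. The lower ones included Pdss1 at -1.22 ± 0.11 (adjusted p = 0.000215) and Pdss2 at -0.49, which together build the side chain of coenzyme Q. The tRNA prenyltransferase Trit1 was higher (0.41).

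Genes for sterol export, storage and the liver X receptor (LXR) response were read against the same shares of all tested genes, 25.5% higher and 23.3% lower. Of 17 tested, 6 were higher and 1 lower without EGF over both lines (median 0.37). Nr1h2, the gene of LXR-beta, was higher at 0.64 ± 0.09 (adjusted p = 0.0014), as were Npc1 (0.40) and Npc2 (0.37), which release cholesterol from lysosomes. Lpcat3, a phospholipid remodelling enzyme and LXR target, was lower at -0.42 ± 0.12 (adjusted p = 0.0264). Of 26 tested genes of fatty acid activation, elongation and glycerolipid synthesis, 6 were higher and 6 lower (23.1% each, median 0.06), near the shares of all tested genes. The lower ones included Hsd17b12 at -0.72 ± 0.08 (adjusted p = 0.000553), which acts in each elongation cycle, the acyl-CoA synthetase Acsl5 (-0.65) and the transcription factor gene Mlx (-0.43). The higher ones included Elovl4 at 1.63 ± 0.26 (adjusted p = 0.00194), an elongase of very long chains. Its counts came almost wholly from CTO19, at 73.2 and 80.8 CPM in noEGF, against 24.1 and 24.4 CPM in EM, and it was at most 0.0792 CPM in any apsMC706 library, so its value over both lines rests on CTO19. Also higher were the lipin Lpin2 (0.60) and Dgat1 (0.60), which makes triglyceride. Of 10 genes of NADPH supply, 2 were higher and 6 lower (median -0.51), with Mthfd1, of folate metabolism, at -1.22 ± 0.07 (adjusted p = 4.88e-05). NAD kinase Nadk (-0.56) and transketolase Tkt (-0.39) were lower, and Idh1 (0.34) and Pgls (0.58) were higher. In the cell division list, where all 20 were lower, Aurka was at -1.16, Cdk1 at -0.96 and Ccna2 at -1.24.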

How the data were processed

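Poly(A)-selected RNA of 8 organoid libraries was measured, 2 in each of 4 groups of line and medium as the labels name them. The deposited values are whole-number read counts per Ensembl gene, which the authors made after alignment with STAR 2.7.0a to mm10, per the submitters' processing notes. The counting program, its strand setting and the annotation release were not given in the sources used here, and the library kit named in the labels does not mark strand. With totals of 35650262 to 38953838 counts, adjusted by the TMM factors, a floor of 3 counts stands for 0.0745 to 0.0868 CPM. That floor covers counting error only.

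Symbols and positions came from GENCODE M21 (GRCm38), which held 32680 of the 32728 gene IDs, and 7747 genes had no count. CPM was computed from the counts and the library totals over tested genes, multiplied by TMM factors of 0.969 to 1.03. In R 4.3.3, edgeR 4.0.16 (filterByExpr over the 4 groups, TMM factors, robust quasi-likelihood F-tests, two-sided) tested 16719 genes holding 99.971% of counts, with Benjamini-Hochberg adjustment over all of them and a threshold of 0.05. The comparison over both lines used a model of line and medium (16.9% biological coefficient of variation, with 5 degrees of freedom left). The responses of each line, their difference and the differences between lines used a model of the 4 group means (4.27%, with 4 left). Standard errors are the log2 fold change divided by the root of F. The steps were also run on simulated data. There the recovery of changed genes within apsMC706 fell short of the first target, and the target was then lowered.

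The members, the other gene lists and the tests were chosen with earlier results of these data known, and the promoter motifs after the values were seen. All 36 members are named, with library values for those past the threshold over both lines or in the difference and for all regulators; from every other list, up to 3 genes of smallest p in each direction, some of which are not reported here. Alternatives were DESeq2 1.42.0 size factors, the DESeq2 Wald test, no filter on low counts, the replicate number as a block, summed libraries, and leaving out each library while keeping the same tested genes. DESeq2 on the summed libraries was added after the data were seen. Replicate numbers did not pair the libraries: deviations from the group means correlated at -0.00825 to 0.0485 between same-numbered libraries over all tested genes and at 0.0199 to 0.175 over the 10119 genes of higher level, where 1 of 6 pairs of groups was over 0.1. Replicates differed beyond counting noise and were kept as separate libraries. Libraries made from the same culture could also differ in this way, so the check does not show that the cultures were separate.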

Additional observations from a re-analysis of the deposited data

Results flagged for a closer look

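The response to the medium without EGF differed between the lines for 30 of the 36 members, by edgeR's test of the difference itself with adjustment over all 16719 tested genes, where 56% of all tested genes passed. Values are the log2 response of CTO19 minus that of apsMC706, each from 2 noEGF and 2 EM libraries a line. In the sterol arm the difference was positive for 13 genes: Mvk 1.31, Hsd17b7 0.96, Ebp 0.91, Tm7sf2 0.88, Idi1 0.84, Acat2 0.64, Fdft1 0.45, Sqle 0.45, Fdps 0.40, Sc5d 0.39, Nsdhl 0.25, Dhcr7 0.22 and Hmgcs1 0.21. In the fatty acid arm it was positive for 8 genes: Elovl6 1.20, Fads2 0.92, Acaca 0.53, Me1 0.39, Fads1 0.36, Fasn 0.33, Scd2 0.31 and Acly 0.22. Among regulators it was positive for 3: Srebf1 0.59, Scap 0.54 and Srebf2 0.24. It was negative for 6 members: Acacb -3.70, Acss2 -0.78, Insig1 -0.64, Insig2 -0.60, Scd1 -0.28 and Msmo1 -0.23. Cell division genes also fell more in apsMC706: their summed level was 2664 and 2478 CPM in CTO19 noEGF, against 4304 and 4164 CPM in CTO19 EM, and 2169 and 2150.3 CPM in apsMC706 noEGF, against 5759 and 5847 CPM in apsMC706 EM. The part of that in the members' differences was not tested. Without CTO19 noEGF replicate 1 the differences of Hmgcs1, Nsdhl, Dhcr7, Srebf2 and Fasn did not pass, and without replicate 2 those of Acly and Fasn did not.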

How the results depend on the processing

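Under DESeq2 size factors, the DESeq2 Wald test, no filter on low counts and the replicate block, the counts of genes and of members past the threshold in each arm and comparison stayed within 1.5 times their main values. With the 2 libraries of each group added together, edgeR called 0 genes over both lines against 8157 (2809 at an unadjusted p under 0.05), 0 sterol genes against 13, 0 regulators against 1 and 0 fatty acid genes against 10; this leaves 1 residual degree of freedom. DESeq2 on the same sums called 804 genes and 2 members. Leaving out each library gave 1 to 2 regulators over both lines. The count of all genes then ran 6889 to 7376 over both lines, 10437 to 11097 in CTO19, 10017 to 11500 in apsMC706 and 8298 to 9209 for the difference of responses. The replicate block gave 6988 genes over both lines and 9406 for the difference of responses. The numbers did not pair the libraries, and the block ended the calls of Mvk (adjusted p = 0.0807), Fdps (0.0727) and Sqle (0.0587) over both lines and no other call of a member there or in the difference.

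Mvk over both lines also missed the threshold with DESeq2 size factors (0.0509) and with no filter (0.0510), while Hmgcs1 (0.0317) and Acacb (0.0303) passed with the Wald test. In the difference of responses, Hmgcs1, Dhcr7 and Acly missed it with no filter, Hmgcs1, Nsdhl and Dhcr7 with the Wald test and Fasn with DESeq2 size factors (0.0841). Signs turned only for values that passed neither way. Leaving out each library moved Insig1 over both lines over -0.191 to 0.0455, Srebf2 over -0.0117 to 0.0634 and Me1 over -0.0863 to 0.00412, and in the difference of responses Mvd over -0.0720 to 0.0612, Lss over -0.0548 to 0.119, Cyp51 over -0.0265 to 0.141 and Elovl5 over -0.0792 to 0.0923. The difference of Mvd was -0.00283 with DESeq2 size factors, -0.00278 with the Wald test and -0.0389 with no filter, where Lss was -0.00426 and Elovl5 -0.0330. The cause was not tested.

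With 2 libraries a group and 2 lines, the spread between lines rests on 2 lines, and medium cannot be told apart from days in culture. Acacb had the lowest counts, at 1.23 to 17.4 CPM. Members whose exons overlap other genes, 13 of 36, carry counts that may include the neighbour's reads.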
